A study of Mus musculus with 24 samples.

Results

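The 3 mature mouse miRNAs described here, mmu-miR-184-3p, mmu-miR-31-5p and mmu-miR-31-3p (written below without the species prefix), were chosen by these systematic names on a mouse miRNA array, and are 3 of the 696 miRNAs measured. They were measured in RNA of eyes of C57BL/6J mice aged 34 days, in which a frosted diffuser had covered the right eye for 10 days from postnatal day 24, which deprives the eye of form vision and makes it myopic, while the left eye was untreated. There were 24 arrays: of whole eyes, 6 myopic and 6 control; of retina, 3 with myopia in their title and 3 with control; and of sclera likewise 3 and 3. By the labels 6 mice gave whole eyes, 9 gave retinas and 9 gave scleras, and pooling of animals is neither stated nor denied, so p-values measure only the spread between these samples. The 12 whole-eye arrays thus come from 6 mice, so arrays share animals there. From these counts it cannot be told whether retina and sclera arrays share animals. Which arrays share an animal is not stated, and tests that count arrays as independent can give p-values that are too small. For the dissected tissues, title and phenotype field contradict each other as to the arm, so the direction between arms is unsettled there and the arms are called by their titles. For whole eye both agree, but the description text says the reverse.

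MicroRNAs are short RNAs cut from a hairpin precursor that lower the output of messenger RNAs carrying matches to the seed, bases 2 to 8 of the mature strand. miR-184 is known as one of the most abundant miRNAs of the corneal and lens epithelium, and a change in its seed causes an inherited human disease of cornea and lens. miR-31 is known from the stratified epithelia of skin and cornea, where it acts on an inhibitor of the hypoxia response. Its hairpin gives a strand from each arm, 5p and 3p, and the 5p strand is the usual guide. The whole eye holds the lens and the cornea, which are no part of retina or sclera.

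The mature strands are shown because the seed decides which messages each can reach, with the seed in capitals (RefSeq, GRCm38.p6).
miR-184-3p: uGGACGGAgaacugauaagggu
miR-31-5p: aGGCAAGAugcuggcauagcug
miR-31-3p: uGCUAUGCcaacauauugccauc
All 3 matched the RefSeq table. The 3 seeds differ, and each is shared by 0 other mature miRNAs among the 1679 of that table. miR-184-3p lies at chr9:89802263-89802284 on the minus strand, where no other annotated gene overlaps its hairpin. The miR-31 strands lie at chr4:88910614-88910635 (5p) and chr4:88910577-88910599 (3p) on the minus strand, within the span of the long noncoding RNA gene Gm49890. The hairpin of miR-31 is shown because the 2 strands are cut from this 1 molecule, so that their ratio can be followed across tissues, and its arms are in capitals.
Mir31 hairpin: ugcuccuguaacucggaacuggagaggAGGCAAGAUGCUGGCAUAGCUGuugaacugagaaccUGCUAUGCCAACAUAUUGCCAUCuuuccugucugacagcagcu
Each miRNA was read by 2 probes of 10 spots each. The probes of the miR-31 strands are shown because the ratio rests on them, and they read the 3′ part of each strand.
miR-31-5p probe, bases 6 to 22: cagctatgccagcatct
miR-31-5p probe, bases 7 to 22: cagctatgccagcatc
miR-31-3p probe, bases 6 to 23: gatggcaatatgttggca
miR-31-3p probe, bases 5 to 23: gatggcaatatgttggcat

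All 3 miRNAs were highest in whole eye. Levels are given as the log2 of the signal relative to the 75th percentile of the array, so that 0 is that percentile, and they can be compared between samples but not between miRNAs, whose probes differ. Between 274 and 401 miRNAs were detected per array, and 0 spots of the 3 miRNAs were saturated. miR-184-3p and miR-31-5p were detected on 24 of 24 arrays, and miR-31-3p on 22. The number of arrays limits the precision. Each slide held whole eye in one row and the dissected tissues in the other, with the arms at fixed positions, so tissue, arm and position on the slide cannot be told apart. In bulk RNA, fewer cells of a type and less RNA per cell cannot be told apart either.

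miR-184-3p ran from 3.07 through a median of 3.49 to 3.88 in myopic whole eyes, and from 3.44 through 3.63 to 3.98 in control whole eyes. It stood at -0.84, -1.04 and -0.93 in retina titled myopia replicates 1, 2 and 3, and at -3.52, 0.40 and 2.18 in retina titled control replicates 1, 2 and 3. The 3 sclera titled myopia arrays had -0.05, 2.09 and 2.39, and the 3 sclera titled control arrays 2.90, 0.99 and 0.95. The whole-eye arrays were close together and above every retina and sclera array, whereas the retina and sclera arrays overlapped each other.

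miR-31-5p ran from -0.77 through -0.42 to -0.22 in myopic whole eyes and from -0.54 through -0.34 to -0.14 in control whole eyes. It stood at -3.61, -3.62 and -3.69 in retina titled myopia, and at -4.76, -2.72 and -1.29 in retina titled control, in the order of the replicates. The sclera titled myopia arrays had -2.96, -2.78 and -2.65, and the sclera titled control arrays -2.39, -2.73 and -2.54. The retina arrays thus spanned more than the sclera arrays, which they enclosed from both sides.

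miR-31-3p ran from -3.60 through -3.09 to -2.97 in myopic whole eyes and from -3.16 through -3.03 to -2.77 in control whole eyes. It stood at -6.55, -6.40 and -6.27 in retina titled myopia and at -7.53, -5.23 and -3.72 in retina titled control. In sclera it stood at -5.26, -5.29 and -5.27 on titled myopia arrays and at -4.71, -5.16 and -5.39 on titled control arrays. The arrays on which it was not called detected were retina titled control replicate 1 and sclera titled control replicate 3.

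**Figure D1:**
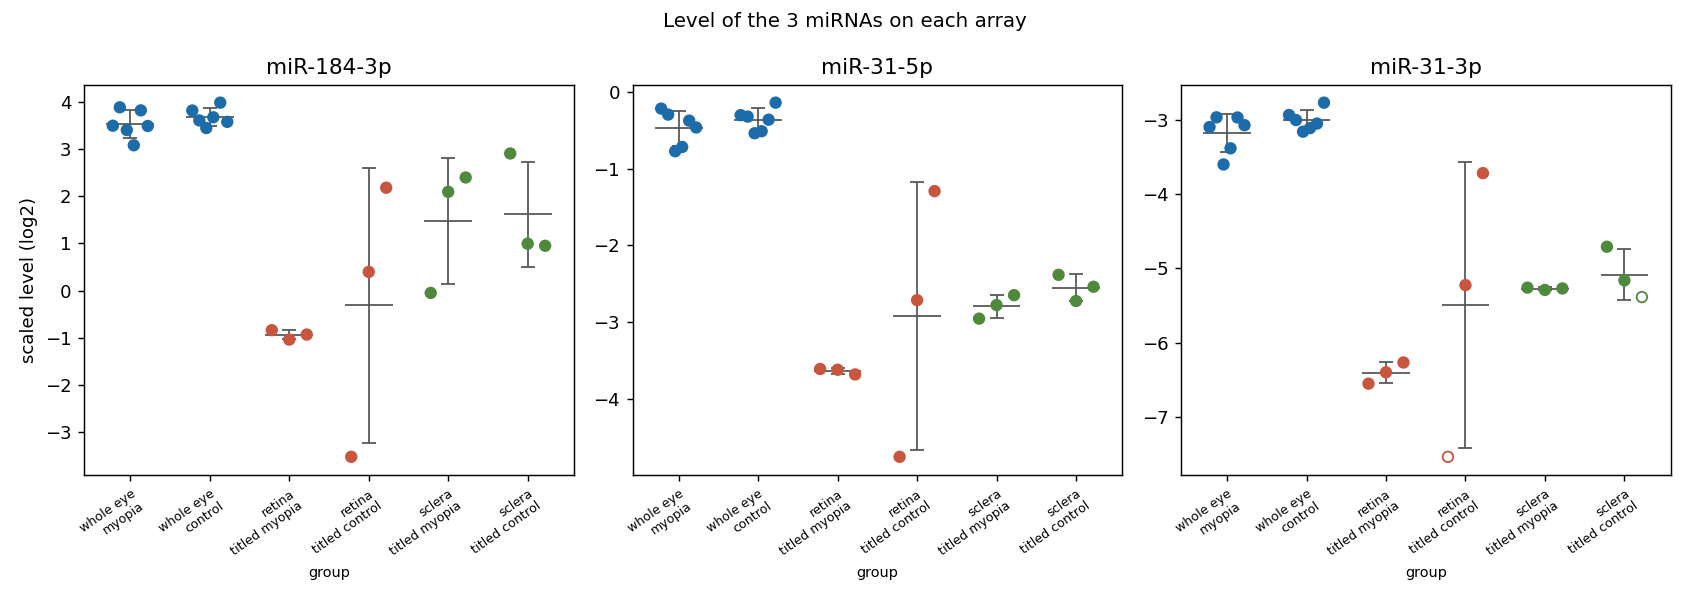
Scaled level (log2, relative to the array's 75th percentile) of each miRNA on each of the 24 arrays, by group, with replicates in order from left to right. Points are arrays, open points arrays where the miRNA was not called detected, horizontal lines group means and bars 1 SD; the whole-eye arrays of miR-184-3p lie between 3.07 and 3.98, and retina titled control spans -3.52 to 2.18.

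The comparison of tissues asks how far whole eye exceeds the dissected tissues. miR-184-3p averaged 3.60 ± 0.25 in whole eye (SD, n = 12) and -0.62 ± 1.87 in retina (SD, n = 6). The difference of 4.22 on the log2 scale (SE 0.55, limma, adjusted p = 4.28e-07) was 18.7-fold, with a 95% interval from 8.46-fold to 41.3-fold. miR-31-5p averaged -0.42 ± 0.19 in whole eye and -3.28 ± 1.17 in retina, a 7.28-fold difference (log2 2.86, SE 0.29, adjusted p = 1.19e-08). miR-31-3p averaged -3.10 ± 0.22 in whole eye and -5.95 ± 1.32 in retina, a 7.22-fold difference (log2 2.85, SE 0.32, adjusted p = 5.86e-08). All 3 were thus called higher in whole eye than in retina. Of the 426 miRNAs tested, 88.0% were called there, 23.0% higher and 65.0% lower, and the median difference over all of them was -0.70, against which the 3 miRNAs stood 4.93, 3.57 and 3.55 higher for miR-184-3p, miR-31-5p and miR-31-3p. Over the 5 ways of scaling and background correction, which moved that median, miR-184-3p stood 4.08 to 4.93 above it, miR-31-5p 2.24 to 3.71 and miR-31-3p 1.0985 to 3.55. With normexp the difference of miR-31-3p was 0.98 (adjusted p = 0.00686). Every whole-eye array lay above every retina array for all 3, as it did for 16.9% of the tested miRNAs. The gap between the lowest whole-eye array and the highest retina array was 0.90 for miR-184-3p, 0.52 for miR-31-5p and 0.12 for miR-31-3p.

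All 3 were also higher in whole eye than in sclera. miR-184-3p averaged 3.60 ± 0.25 in whole eye and 1.55 ± 1.101 in sclera (SD, n = 6), a 4.15-fold difference (log2 2.05, SE 0.55, limma, adjusted p = 0.00215). miR-31-5p averaged -0.42 ± 0.19 in whole eye and -2.67 ± 0.20 in sclera, a 4.78-fold difference (log2 2.26, SE 0.29, adjusted p = 4.77e-07). miR-31-3p averaged -3.10 ± 0.22 in whole eye and -5.18 ± 0.24 in sclera, a 4.24-fold difference (log2 2.08, SE 0.32, adjusted p = 6.18e-06). This last call was not kept under normexp background correction. Its offset of 50 exceeds the processed signal of miR-31-3p on 11 of the 12 dissected-tissue arrays (8.70 to 45.3). With normexp the difference of miR-31-3p was -0.31 (limma, adjusted p = 0.300), and that of miR-31-5p 1.13 (adjusted p = 4.91e-04). The median over all tested miRNAs moved from 0.15 to -1.01 with it, and the cause of the lost call was not tested. Against the median of all tested miRNAs, miR-31-3p stood 0.70 to 1.94 higher, miR-31-5p 2.02 to 2.34 higher and miR-184-3p 1.82 to 3.36 higher over those 5 ways. Of the tested miRNAs 70.9% were called between whole eye and sclera, 40.1% higher in whole eye and 30.8% lower, and for 25.4% the arrays did not overlap in that direction. The gap between the lowest whole-eye array and the highest sclera array was 0.17 for miR-184-3p, 1.61 for miR-31-5p and 1.11 for miR-31-3p, so sclera came closest for miR-184-3p.

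The order of the tissues was whole eye, sclera, retina in the means of all 3 miRNAs, and with the scaling used here retina and sclera were separated by the test only for miR-184-3p. miR-184-3p was 4.50-fold lower in retina than in sclera (log2 -2.17, SE 0.63, limma, adjusted p = 0.00326), a difference of -1.37 without retina titled control replicate 1 and of -2.79 without replicate 3 (adjusted p = 6.90e-05). For miR-31-5p the difference was -0.61 (SE 0.33, 95% interval -1.31 to 0.09, adjusted p = 0.0920), and for miR-31-3p it was -0.77 (SE 0.37, adjusted p = 0.0571). Without retina titled control replicate 3, the difference was -1.02 for miR-31-5p (adjusted p = 3.74e-04) and -1.21 for miR-31-3p (adjusted p = 2.43e-04), and both were called lower in retina. Without sclera titled control replicate 3 the difference of miR-31-3p was -0.94 (adjusted p = 0.0352). Both strands were also called lower in retina under each of the other 4 ways of scaling and background correction, with differences from -1.40 to -0.73 for miR-31-5p and from -1.48 to -1.03 for miR-31-3p. With normexp, however, the median over all tested miRNAs was -0.85, and 245 of 426 were called lower. Relative to the median, miR-31-5p stood at -0.13 and miR-31-3p at -0.43 with normexp. Over the 5 ways these ran from -1.60 to -0.13 and from -1.68 to -0.43, and miR-184-3p from -3.03 to -0.76. Of all tested miRNAs 89.2% were called between retina and sclera, 58.7% higher in retina and 30.5% lower, with a median difference of 0.81. For 44.6% every retina array lay above every sclera array. The 3 members had lower means in retina, so they could not be among these. The share of miRNAs apart in the other direction was not counted. The retina and sclera arrays of all 3 members overlapped.

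**Figure D2:**
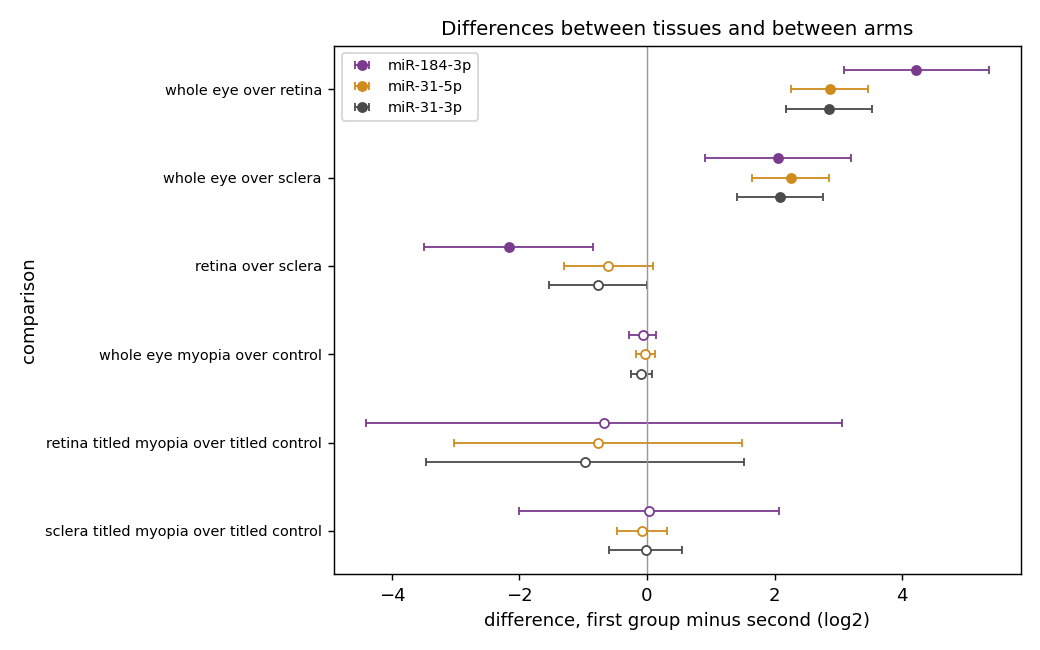
Difference in level (log2, first group minus second) of each miRNA in the 3 tissue comparisons and the 3 comparisons of arms, with 95% intervals from limma; filled points passed an adjusted p of 0.05. The 3 miRNAs stand 2.05 to 4.22 higher in whole eye than in retina or sclera, and the intervals of the comparisons of arms include 0.

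Within slides, where each comparison has 4 whole-eye and 2 retina arrays, miR-184-3p was 5.69, 4.14 and 2.85 higher in whole eye than in retina on slides 1, 2 and 3. The corresponding values of miR-31-5p were 3.75, 2.83 and 2.01. Against sclera, miR-184-3p was 2.08, 2.28 and 1.80 higher in whole eye and miR-31-5p 2.23, 2.42 and 2.12 higher. The difference between retina and sclera was less even: miR-31-5p differed by -1.52, -0.42 and 0.11 on the 3 slides. Both probes of a miRNA gave similar differences, with 4.21 and 4.23 for the 2 probes of miR-184-3p in whole eye over retina and 2.89 and 2.82 for those of miR-31-5p.

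The study's main question, whether form deprivation changes miRNAs, gave no call for these 3. In whole eye the fit and its scaling used its 12 arrays alone. The myopic eyes differed from control eyes by -0.07 for miR-184-3p (SE 0.10, 95% interval -0.28 to 0.14, limma, adjusted p = 0.736). The difference was -0.02 for miR-31-5p (95% interval -0.18 to 0.13, adjusted p = 0.884) and -0.09 for miR-31-3p (95% interval -0.26 to 0.08, adjusted p = 0.505). As folds, the intervals ran from 0.825 to 1.103 for miR-184-3p, from 0.883 to 1.095 for miR-31-5p and from 0.836 to 1.055 for miR-31-3p. None of the 3 was called, against 10.3% of the 341 miRNAs tested in whole eye, all of them higher in myopia. With scaling over all miRNAs, under which the median over all tested miRNAs was -0.13 against 0.08, the differences were -0.28 for miR-184-3p, -0.23 for miR-31-5p and -0.30 for miR-31-3p (adjusted p = 0.0663, 0.192 and 0.0624), and the fold intervals lay below 1, from 0.722 to 0.941, from 0.728 to 0.992 and from 0.706 to 0.934. Relative to that median the 3 stood at -0.15, -0.11 and -0.17 under both. Under quantile normalization miR-31-3p was called lower in myopic eyes (difference -0.27, adjusted p = 0.0385). If the sentence in the description were right, the signs would turn.

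In retina the titled myopia arrays differed from titled control by -0.67 for miR-184-3p (95% interval -4.41 to 3.06, limma, adjusted p = 0.826), by -0.77 for miR-31-5p and by -0.97 for miR-31-3p. The 3 titled myopia arrays had processed signals of miR-184-3p of 990, 1090 and 832, whereas the titled control arrays had 141, 2230 and 8073 in replicates 1, 2 and 3, a 57.3-fold range. On slide 1 miR-184-3p was 2.68 higher on the titled myopia array than on the titled control array, whereas on slides 2 and 3 it differed by -1.43 and -3.11. Without titled control replicate 3 the difference turned to 0.51. In sclera the titled arms differed by 0.03 for miR-184-3p (95% interval -2.01 to 2.07, limma, adjusted p = 0.999), by -0.08 for miR-31-5p (95% interval -0.48 to 0.32) and by -0.02 for miR-31-3p (95% interval -0.60 to 0.55). With limma 0% of the miRNAs were called in retina and 0% in sclera, where 20 of 396 and 7 of 311 had an unadjusted p under 0.05. The arm effect of miR-184-3p in whole eye differed from that in retina by 0.46 and from that in sclera by -0.02 (SE 1.095 for both), and with Benjamini-Hochberg adjustment in limma neither difference passed (adjusted p = 1 for both).

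The spread between retina arrays of the same titled arm was larger for miR-184-3p than for any other of the 329 miRNAs detected on all 6 retina arrays, with an SD within arms of 2.06 against a median of 0.13. miR-31-5p ranked 22 with an SD of 1.23, and miR-31-3p had an SD of 1.36 but missed detection on 1 array. The 3 miRNAs moved together there. Retina titled control replicate 3 held the highest level of each and replicate 1 the lowest. Over the 6 retina arrays miR-184-3p and miR-31-5p correlated at r = 0.98 (exact permutation p = 0.00417, adjusted over 6 pairs 0.0167) and rho = 0.94 (p = 0.0167, adjusted 0.100). Without the 2 arrays farthest from the median of miR-184-3p, r was 0.99 and rho 0.80 over 4 arrays (exact permutation p = 0.125 and 0.333). These were the 3 titled myopia arrays, which lay close together, and titled control replicate 2, so that r rests on 1 array. The correlation over retina arrays was added after seeing the data. On titled control replicates 1, 2 and 3 the numbers of miRNAs detected were 372, 362 and 353 and the signals of the corner control spots were 451, 196 and 248, and their part in the spread was not tested.

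Other miRNAs of surface epithelium were mostly not detected in retina, so how far most of them moved with miR-184-3p could not be measured there. The list comprised miR-205-5p and miR-203-3p, known from stratified epithelium, and miR-200a-3p, miR-200b-3p, miR-200c-3p, miR-141-3p and miR-429-3p, the family that maintains the epithelial state. Its summed scaled level, on the linear scale, was 0.0564, 0.0450 and 0.0587 on retina titled control replicates 1, 2 and 3, on which miR-184-3p stood at -3.52, 0.40 and 2.18 in log2. Over all 6 retina arrays the sum ran from 0.0450 to 0.0784, and 1 to 3 of the 7 were detected per array. Of the 42 values in these sums 12 were detected. miR-203-3p, detected on all 6, stood at -6.02, -6.01 and -6.00 on titled control replicates 1, 2 and 3. On titled myopia replicates 1, 2 and 3 it stood at -6.39, -6.06 and -6.10. miR-200a-3p, miR-200c-3p and miR-141-3p were detected on none of the 6. miR-205-5p and miR-200b-3p were each detected on 1 array, titled control replicate 3, which held the most miR-184-3p, at -6.03 and -7.24, against the floor of -7.69 on the other 5. miR-429-3p was highest on titled myopia replicates 2 and 1, at -4.69 and -4.92.

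Members of other lists were also high on retina titled control replicate 3. It had the highest sums for retinal neurons (232.3, against 194 to 215 on the other 5), pigment epithelium and ciliary body (26.5, against 21.3 to 24.3) and fibroblasts (1.26, against 0.923 to 1.02). Within the fibroblast list miR-199a-3p stood at -2.59 there, against -4.87 to -4.50 on the other 5. The skeletal muscle list was not highest on it (0.256, against 0.172 to 0.281), as its members went different ways. miR-1a-3p stood at -4.58, -3.45 and -2.70 on titled control replicates 1, 2 and 3, the order of miR-184-3p, and miR-133a-3p rose in the same order. Only miR-206-3p, at -3.40, -5.30 and -5.96, went the reverse way. The part of other tissue in the spread of the members was not tested.

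**Figure D3:**
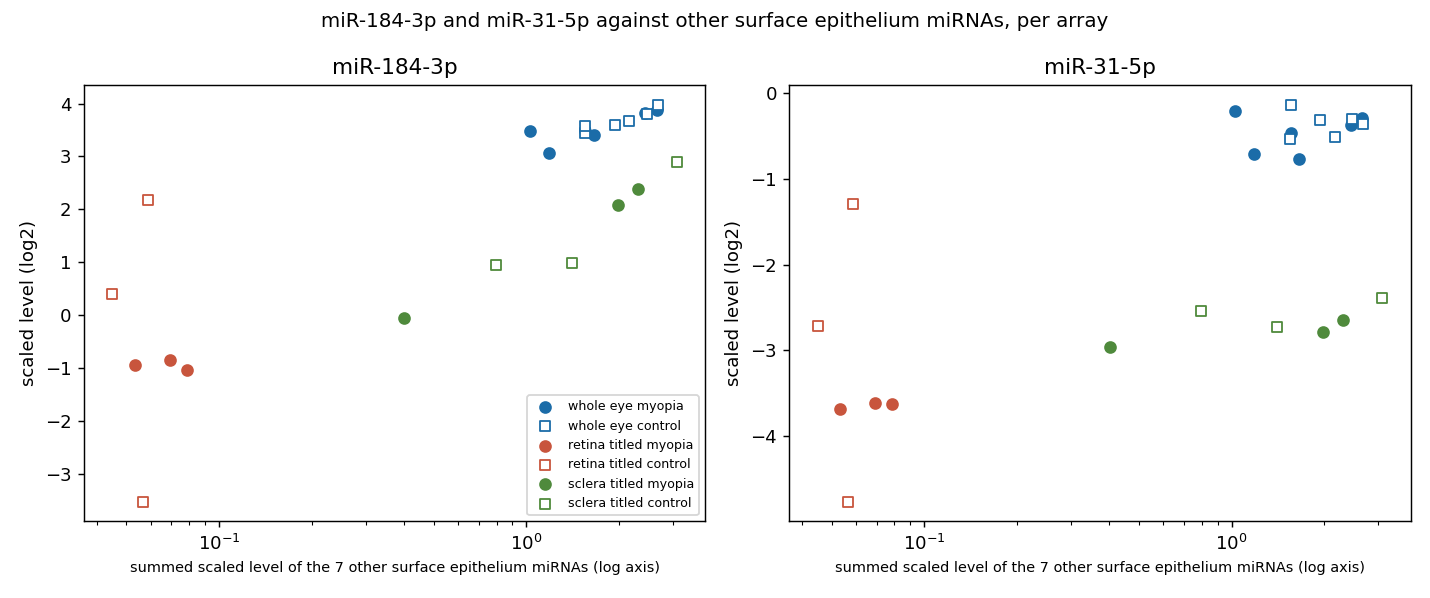
Scaled level (log2) of miR-184-3p and of miR-31-5p on each array, against the summed linear scaled level of 7 other surface epithelium miRNAs (log axis); filled circles are myopia or titled myopia and open squares control or titled control. The retina arrays stand at 0.0450 to 0.0784, with 12 of the 42 values in their sums detected, while miR-184-3p spans -3.52 to 2.18. The sclera arrays climb with the sum for miR-184-3p.

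In sclera the list was detected, and miR-184-3p stood in its order. The dissected sclera was not free of surface epithelium miRNAs: the summed level of the 7 ran from 0.401 to 3.09 over the 6 arrays, against 1.03 to 2.68 over the 12 whole-eye arrays. From the lowest to the highest array, miR-184-3p stood at -0.05, 0.95, 0.99, 2.09, 2.39 and 2.90 in log2, and the summed list at 0.401, 0.794, 1.41, 1.98, 2.31 and 3.09, the same order. The SD of miR-184-3p within arms was 1.23, which ranked 4 of the 266 miRNAs detected on all sclera arrays, after miR-96-5p, miR-205-5p and miR-200c-3p. miR-31-5p, by contrast, had an SD of 0.16, rank 203, below the median of 0.27. Its lowest and highest arrays were those of miR-184-3p, but the 4 between stood in another order. The list for retinal neurons also varied in sclera, with sums from 2.97 to 16.4, and its highest array was titled control replicate 2, not replicate 1.

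The tissue differences of the same list were compared with those of the members. In whole eye over retina 7 of 7 surface epithelium miRNAs were higher, with a median of 4.75 (median of all tested -0.70). The largest was miR-205-5p with a difference of 7.30 and the smallest miR-203-3p with 2.66. In retina, however, 3 of the 7 were detected on no array and 2 on 1 array, and 12 of 42 values were detected. Those 3 and 2 passed the detection rule only through other groups. Their direction in both comparisons with retina was thus largely fixed in advance, and the sizes depend on the floor. In whole eye over sclera 0 of 7 were called in either direction, against 70.9% of all tested miRNAs. With limma 1 of 7 had an unadjusted p under 0.05, and the median was 0.26 (median of all tested 0.15). There miR-205-5p differed by 0.77 (limma, adjusted p = 0.0683) and miR-200a-3p by -0.01. The 3 members were 2.05 to 2.26 higher in that comparison. In retina over sclera 7 of 7 were lower, with a median of -4.32, while miR-31-5p differed by -0.61. Between whole-eye arms 0 of 7 were called, against 10.3% of the 341 miRNAs tested there (limma, with 0 of 7 at an unadjusted p under 0.05). The median difference was -0.17 (median of all tested 0.08). The other lists went with the tissue labels, but they were chosen with earlier results of these data known and give no independent check of the labels. In retina over sclera 6 of 6 retinal neuron miRNAs were higher (median 4.38), and 7 of 7 fibroblast and scleral miRNAs were lower (median -3.42). Of all tested miRNAs 58.7% were higher there and 30.5% lower, and the median was 0.81. In whole eye over retina 1 of the 2 pigment epithelium and ciliary body miRNAs was lower and 2 of 3 skeletal muscle miRNAs were higher, against 65.0% lower and 23.0% higher among all tested miRNAs.

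Among whole eyes, miR-31-5p and miR-31-3p varied together. Over the 12 arrays r was 0.91 (permutation p = 5e-05, adjusted over 3 pairs 1.5e-04) and rho 0.83 (adjusted p = 0.00483). Without the 2 arrays farthest from the median r was 0.76 (adjusted permutation p = 0.0297). miR-184-3p correlated with miR-31-5p at r = 0.58 (permutation p = 0.0452, adjusted 0.0452; rho 0.53, adjusted 0.0776) and with miR-31-3p at r = 0.61 (permutation p = 0.0359, adjusted 0.0452; rho 0.69, adjusted 0.0258). Without the 2 arrays farthest from the median of miR-184-3p, r with miR-31-5p was 0.44 and rho 0.47 (adjusted permutation p = 0.204 and 0.179), and r with miR-31-3p was 0.57 and rho 0.67 (adjusted permutation p = 0.100 and 0.0576). Neither passed over these 10 arrays, and the coefficients with miR-31-3p were nearly as large as over all 12. As deviations from the means of arm and slide, both r were 0.45 (adjusted permutation p = 0.148). The 4 whole-eye arrays with the most miR-184-3p were also those with the highest sums of the surface epithelium list, 2.44 to 2.68. In sclera, over 6 arrays, miR-184-3p and miR-31-5p had r = 0.69 (exact permutation p = 0.132, adjusted 0.198) and rho = 0.60 (p = 0.242, adjusted 0.363), and without the 2 farthest arrays r was -0.38.

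**Figure D4:**
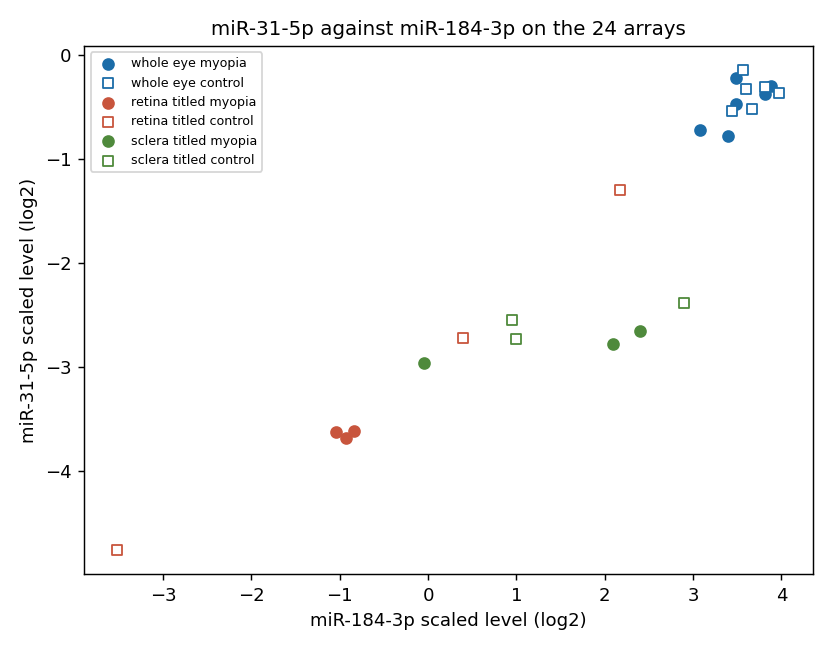
Scaled level (log2) of miR-31-5p against that of miR-184-3p on the 24 arrays; filled circles are myopia or titled myopia and open squares control or titled control. The retina arrays lie along a line that runs up towards the whole-eye arrays, from -3.52 and -4.76 to 2.18 and -1.29, while the sclera arrays vary in miR-184-3p at a nearly even miR-31-5p of -2.96 to -2.39.

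The strand ratio of miR-31 asks whether the 5p and 3p strands keep their proportion. It is the log2 ratio of the summed processed signals of the probes of the 2 strands, which is not a molar ratio, so it is compared between samples only. It averaged 2.71 ± 0.12 in myopic and 2.65 ± 0.04 in control whole eyes (SD, n = 6 each). It averaged 2.76 ± 0.18 in titled myopia retina and 2.57 ± 0.18 in titled control retina, and 2.48 ± 0.16 in titled myopia sclera and 2.53 ± 0.27 in titled control sclera (SD, n = 3 each). The group means thus lay between 2.48 and 2.76, while the 5p strand itself differed 7.28-fold between whole eye and retina.

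The retina titled myopia arrays had ratios of 2.94, 2.77 and 2.58, and the titled control arrays 2.77, 2.51 and 2.43. The sclera titled myopia arrays had 2.30, 2.51 and 2.62, and the titled control arrays 2.32, 2.43 and 2.85. The whole-eye arrays ran from 2.60 to 2.88 in myopia and from 2.60 to 2.69 in controls. All groups overlapped.

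Between tissues, whole eye exceeded retina by 0.01 (exact permutation p = 0.858, two-sided, adjusted over 6 comparisons 0.858) and sclera by 0.17 (exact p = 0.0218, adjusted 0.131). Retina exceeded sclera by 0.16 (exact p = 0.195, adjusted 0.400). Myopic whole eyes exceeded controls by 0.07 (exact p = 0.279, adjusted 0.419). The titled arms differed by 0.19 in retina (exact p = 0.200, adjusted 0.400) and by -0.06 in sclera (exact p = 0.800, adjusted 0.858), where 3 arrays against 3 cannot give less than 0.100. None passed. Without sclera titled control replicate 3, where miR-31-3p was not called detected, whole eye exceeded sclera by 0.24 (exact p = 6.46e-04, adjusted 0.00388).

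The ratio in the dissected tissues changed with the treatment of the background. The 3p signal there was as low as 8.70, with mean signals of the negative control spots of 0.726 to 3.77 over all arrays, and the cause was not tested. With normexp the ratio was 1.97 in whole eye, 0.89 in retina and 0.53 in sclera, so that whole eye exceeded retina by 1.08 and sclera by 1.44. Its offset of 50 is larger than most 3p signals of the dissected tissues, and an added constant of that size draws the ratio of dim arrays towards 0 whatever the strands do, so no difference between the tissues is read from these values. From the authors' deposited value table, whole eye was higher by 0.49 and by 0.79 (exact permutation, adjusted p = 1.62e-04 for both). With the mean negative control signal subtracted, which was added after seeing the data, the differences were -0.44 and -0.14 (exact permutation, adjusted p = 0.137 and 0.672). With the brightest probe of each strand alone, whole eye differed from retina by 0.07 and from sclera by 0.08 (exact permutation, adjusted p = 0.495 for both), and retina from sclera by 0.0039.

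**Figure D5:**
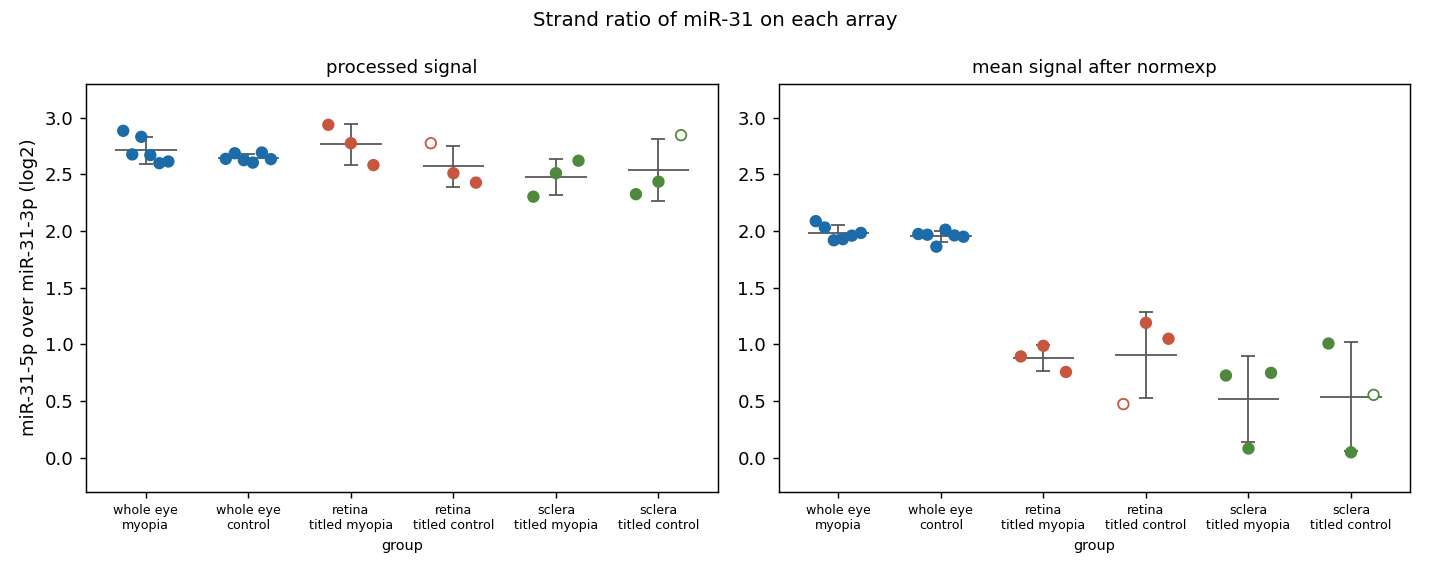
Log2 ratio of miR-31-5p over miR-31-3p on each array by group, from processed signals (left panel) and from mean signals after normexp background correction (right panel), with replicates in order from left to right. Points are arrays, open points arrays where miR-31-3p was not called detected, lines group means and bars 1 SD; the tissues overlap in the left panel between 2.30 and 2.94, and whole eye stands apart in the right panel, where the offset of 50 draws dim arrays towards 0.

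The miRNAs whose level over the 24 arrays was most like that of each member were named by the highest Pearson correlation among 423 others. These values are descriptions, and the 24 points share 3 tissues. The nearest to miR-184-3p were miR-20b-5p (r = 0.91), miR-18a-5p (0.89), miR-20a-5p (0.88), the array entry miR-2132_v15.0 (0.86) and miR-205-5p (0.86). The nearest to miR-31-5p were miR-20a-5p and miR-20b-5p (both 0.97), miR-374c-5p (0.90), miR-18a-5p (0.90) and miR-2132_v15.0 (0.89). The nearest to miR-31-3p were miR-20b-5p (0.95), miR-20a-5p (0.95), miR-18a-5p (0.91), miR-374c-5p (0.89) and miR-2132_v15.0 (0.88). Of the 6 names, 4 were shared by all 3 members. Between the members themselves r was 0.99 for the strands of miR-31, 0.94 for miR-184-3p with miR-31-5p and 0.95 with miR-31-3p.

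miR-20a-5p, miR-20b-5p and miR-18a-5p belong to the miR-17 family of clusters, known for their part in cell proliferation. Like the members, miR-20a-5p was highest of the retina arrays on titled control replicate 3 (-1.18) and lowest on titled control replicate 1 (-2.11). miR-20b-5p stood at -2.74 and -3.58 on these 2 arrays and miR-18a-5p at -5.97 and -7.28, the last not called detected. Their ranges over the retina titled control arrays, 0.92, 0.83 and 1.31, were smaller than the 5.69 of miR-184-3p and the 3.47 of miR-31-5p.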

How the data were processed

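Per the labels, total RNA was labelled with Cy3 and hybridised to 1-colour arrays. Spot intensity in the authors' deposited files had been background-subtracted by Agilent Feature Extraction, per the file headers (version 11, per the submitters' processing notes). The authors' deposited value table holds log2 values per probe, with column medians from 3.18 to 4.07. How it was scaled, and how dim probes were set, is not stated in them. Array columns left unmapped numbered 0.

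Spot signals were averaged per probe without flagged spots (58 of 1440 spots of the 3 miRNAs), summed over the probes of a miRNA, scaled to the 75th percentile, on that array, of the miRNAs that every array in the fit detected (237 for all 24 arrays, 288 whole eye, 329 retina, 266 sclera), floored at the median lowest detected signal (-7.69 in log2 for all 24) and log2 transformed. Testing required detection on 2 of 3 arrays or more in some group. limma (3.58.1, R 4.3.3; lmFit, eBayes, two-sided) compared tissues over all 24 arrays in 6 groups, each tissue as the mean of its 2 arms, and arms within each tissue, with Benjamini-Hochberg adjustment over all miRNAs tested and a threshold of 0.05. The fits were tested on simulated data. Strand ratios used exact permutation tests, adjusted over 6, and whole-eye correlations 100000 resamples (Python 3.11.15, scipy 1.17.1). The members, the lists and the naming rule (the members, list members and the 5 nearest miRNAs of each member) were chosen with earlier results of these data known. Alternatives were normexp (offset 50), scaling over all miRNAs, quantile normalization, the value table, no filter on dim miRNAs, miRNAs detected on all arrays, the brightest probe of each strand, slide and replicate blocks, and leaving out each array.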

Additional observations from a re-analysis of the deposited data

How the results depend on the processing

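The number of arrays and signal over background limit these results: miR-31-3p was near background in the dissected tissues, and 1 retina array, titled control replicate 3, decides several values. Of 256 results under alternatives other than leaving out an array 214 kept their direction and their side of the threshold, and of 456 that leave out an array 432 did. Except where stated, causes were not tested. miR-31-3p in whole eye over sclera turned to -0.31 under normexp. In retina over sclera, miR-31-3p passed at -1.29 (normexp), -1.44 (scaling over all miRNAs), -1.48 (quantile) and -1.03 (value table), and miR-31-5p at -0.98, -1.39, -1.40 and -0.73. The median over all tested miRNAs was -0.85 there with normexp. Leaving out an array gave -1.21 to -0.26 for miR-31-3p and -1.02 to -0.15 for miR-31-5p there. Between whole-eye arms, miR-31-3p passed under quantile normalization (-0.27), and miR-31-5p ran from -0.072 to 0.013 without 1 array. miR-184-3p in the sclera arms turned to -0.037 (scaling over all), -0.073 (quantile), -0.13 (value table) and -0.14 (arms from all 24 arrays). Without 1 array it ran from -0.45 to 0.81, miR-31-3p from -0.31 to 0.19 and miR-31-5p from -0.22 to 0.031. In the retina arms, miR-184-3p ran from -2.38 to 0.51 without 1 array.

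Counts of called miRNAs moved by over 1.5 times from 375 in whole eye over retina to 163 (normexp) and 211 (only miRNAs detected on all arrays). That filter, by testing fewer miRNAs, also gave 192 against 302 in whole eye over sclera and 215 against 380 in retina over sclera. The 35 called between whole-eye arms became 22 (normexp), 96 (quantile) and 15 (that filter). The 0 called between arms became 51 in retina and 2 in sclera in the fit of all 24 arrays. In retina they ran from 0 to 55 without 1 array, reaching 55 without titled control replicate 1.

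The strand ratio of whole eye over retina was 1.08 (normexp), 0.49 (value table) and -0.44 (negative control signal subtracted), and -0.036 to 0.066 without 1 array. Over sclera it was 1.44, 0.79 and -0.14, and 0.13 to 0.24 without 1 array. With the brightest probes the ratio difference was 0.077 over sclera, against 0.17, and 0.0039 in retina over sclera, against 0.16. The offset of normexp by its construction draws dim arrays towards 0. Without the arrays where miR-31-3p was not detected it passed over sclera (0.24) and turned in the sclera arms (0.10), which ran from -0.16 to 0.10 without 1 array. In the retina arms it was -0.025 (normexp) and -0.087 (subtraction). The whole-eye correlation of miR-184-3p with miR-31-5p no longer passed at r = 0.48 (scaling over all), 0.55 (normexp), 0.53 (value table), 0.44 (without the 2 farthest arrays) and 0.45 (deviations), and that with miR-31-3p at 0.50, 0.50, 0.57 and 0.45 for all of these but the value table.

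Same-numbered arrays of the 2 arms did not deviate together in every pair (r from -0.15 to 0.48 in whole eye, -0.40 to 0.65 in retina, -0.43 to -0.12 in sclera), so the numbers were not taken as pairs. With the replicate number as a block, miR-184-3p in whole eye over retina was 4.23 (limma, adjusted p = 3.40e-05), the number called between whole-eye arms 45, and 27 of 27 results kept their direction and their side of the threshold.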
